A study of Mus musculus with 6 samples.

Results

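The genes described here encode the matrix metalloproteinases (MMPs), the ADAMTS proteases, the ADAMTS-like proteins and the tissue inhibitors of metalloproteinases (TIMPs). They were chosen by symbol alone, as every gene of the array's annotation called Mmp, Adamts, Adamtsl or Timp followed by a number. This gave 49 of the 19938 genes that the array names singly, namely 22 MMPs, 18 ADAMTS proteases, 5 ADAMTS-like proteins and 4 TIMPs. Each gene was read from its brightest transcript cluster, a transcript cluster being the probes designed against 1 transcribed locus. The mice were male wild type C57BL/6 animals, 7 to 8 weeks old when obtained and given 1 week to settle, and they carried no engineered allele. In the LPS-treated group, 3 mice received 4 mg/kg of lipopolysaccharide (LPS, a cell wall component of gram-negative bacteria, here from Escherichia coli serotype 055:B5) into the peritoneum, and in the vehicle-treated control group 3 mice received PBS by the same route. Whole brains were taken 48 hours later, after perfusion to wash out blood, and RNA of each brain was hybridized to 1 Affymetrix GeneChip Mouse Gene 1.0 ST array. Values are log2 expression after robust multichip average (RMA) normalization, so a difference of 1 is a doubling. RNA of a whole brain mixes all of its cell types, and more cells of a type cannot be told apart from more RNA per cell.

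MMPs are zinc-dependent proteases that cut collagens, gelatin, basement membrane proteins and many cell surface and signalling proteins. Most are secreted as inactive proenzymes that other proteases must cut, and some sit in the cell membrane and switch on their secreted relatives. ADAMTS proteases are secreted too, and a subset cleaves the large proteoglycans of the brain's extracellular matrix, such as brevican, neurocan and versican. ADAMTS-like proteins share their binding domains without the protease. TIMPs bind the active site of MMPs and, in the case of TIMP3, of several ADAM and ADAMTS proteases. In inflamed brain the family is best known for the opening of the blood-brain barrier, where MMP2, MMP3, MMP9 and MMP14 have been studied most.

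The comparison asked which of these genes differed in the brain 48 hours after systemic LPS. No member passed the test: by limma with Benjamini-Hochberg adjustment over 35556 clusters, 0 of 49 were higher and 0 were lower in LPS-treated mice than in vehicle-treated controls at an adjusted p under 0.05, where 0.714% of all clusters passed, 0.652% as higher and 0.0619% as lower. The unpaired t test named in the study's methods, with the same adjustment, also called 0 members, where it called 0.0141% of all clusters, and 7 members before adjustment, where it called 11.9%. At an unadjusted limma p under 0.05 there were 7 members, 5 with a higher mean in LPS-treated mice (Adamts1, Adamts18, Adamtsl1, Mmp14 and Timp1) and 2 with a lower mean (Adamts3 and Mmp3). That is 14.3% of the members, and 14.3% of all clusters met the same criterion, 7.69% as higher and 6.58% as lower. The 7 members of the t test were 4 higher and 3 lower. They held Mmp24 (unadjusted p = 0.00518 by the t test, lower) in place of Mmp14 (unadjusted p = 0.0628 by the t test). The values of the 3 LPS-treated mice did not overlap those of the 3 controls for 16 members, 9 higher and 7 lower, or 32.7%, against 20.0% of all clusters (9.73% higher and 10.3% lower). With 3 mice against 3, an exact permutation test of a single gene cannot give a p below 0.1. The differences were small, with a median of 0.04 over the members and -0.00 over all clusters, and only Adamts1 differed by more than 0.5 on the log2 scale. Of the 49, 29 were positive and 20 negative, a split that became 18 and 31 when each array was centred on its median. The median 95% confidence interval of a member extended 0.22 to either side of its difference.

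**Figure D1:**
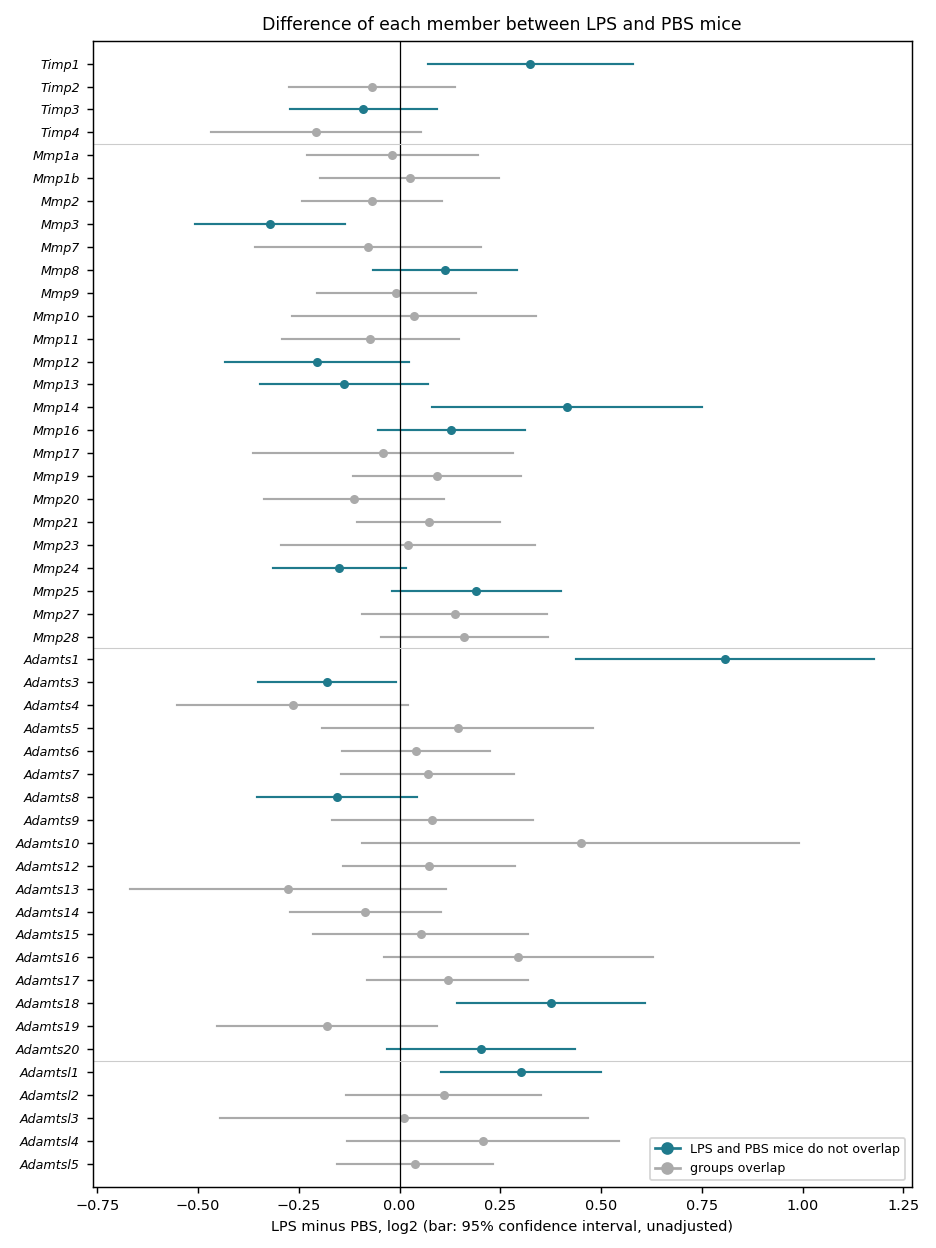
Difference in mean log2 expression, LPS-treated minus vehicle-treated mice (x axis), for each of the 49 members (rows), with the unadjusted 95% confidence interval of the limma fit as a bar. Coloured points mark the 16 members whose LPS and PBS values did not overlap; the point of Adamts1 lies at 0.81 and all others lie between -0.32 and 0.45.

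The arrays themselves were uneven within the LPS-treated group. The array medians were 7.09, 7.11 and 6.96 in LPS replicates 1, 2 and 3, against 6.95 to 6.98 in the controls. On the first principal component of all clusters, which held 54.5% of the variance, LPS replicates 1 and 2 scored 32.9 and 48.3, LPS replicate 3 scored -15.2 and the controls scored between -25.2 and -16.1. Leaving out LPS replicate 3 therefore moved many results, and values without it are given beside those whose call or size it changed most. Tbp, the gene used as the qPCR reference in the study, differed by -0.00 (95% confidence interval -0.26 to 0.25).

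The file gives no detection calls, so levels were set against 1190 genes for olfactory and vomeronasal receptors, most of which serve the sensory epithelia of the nose and not the brain. Their group means had a median of 5.73 in LPS-treated mice and 5.73 in controls, and 95th percentiles of 6.51 in LPS-treated mice and 6.52 in controls. Of the 49 members, 21 lay above the 95th percentile in LPS-treated mice and 18 in controls, the 18 being common to both, and 28 lay above it in neither group. Adamts1, Adamts18 and Adamts20 passed this level in LPS-treated mice alone. A group of 11 members lay below the median of the receptor genes in both groups. Above the 95th percentile in both groups were Timp2, Timp3 and Timp4, 5 MMPs (Mmp2, Mmp14, Mmp16, Mmp17 and Mmp24), 7 ADAMTS proteases and 3 ADAMTS-like proteins. For a member below that level in a group a difference may be measured on little more than background hybridization, so its log2 difference is given without a fold change.

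**Figure D2:**
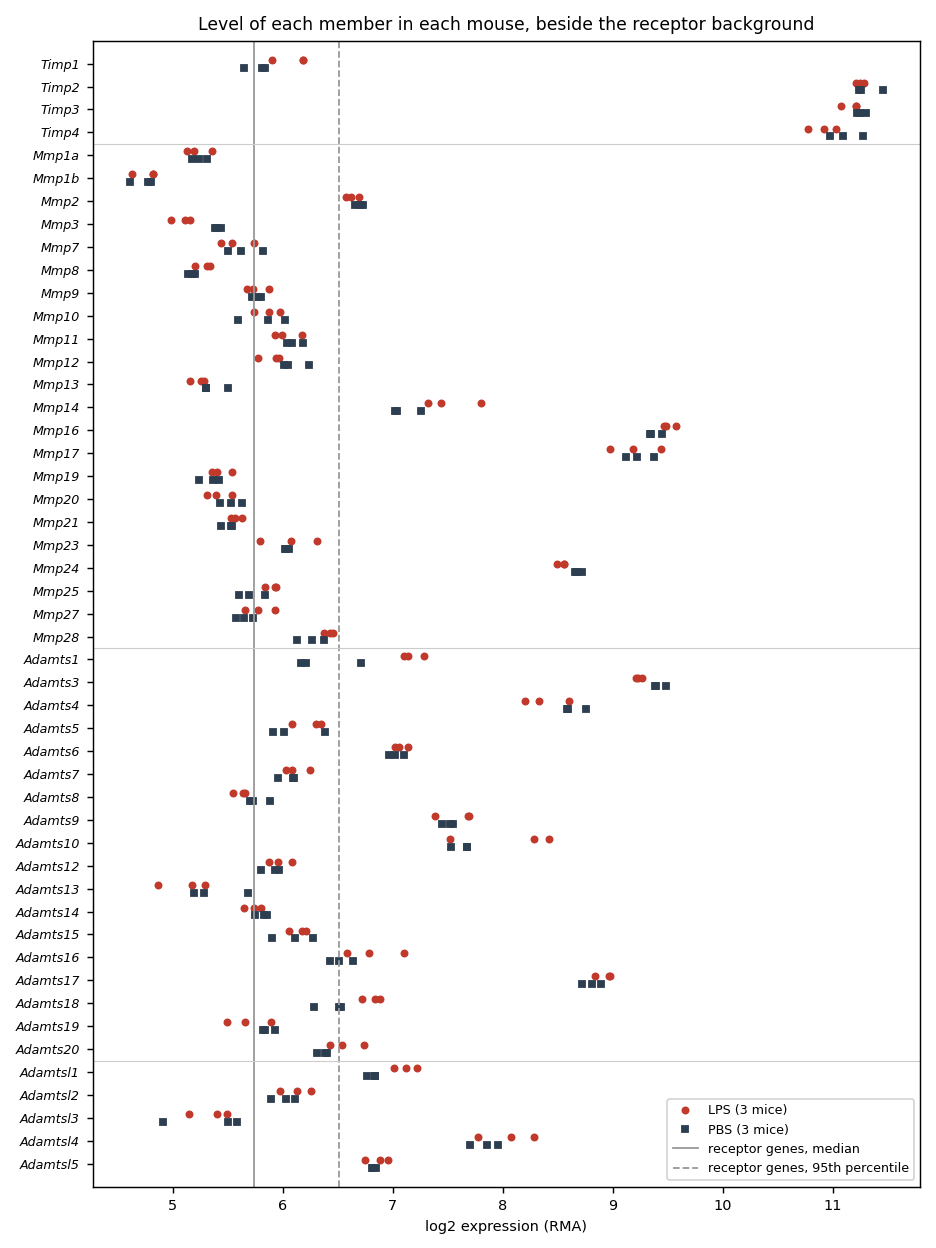
Log2 expression (x axis) of each member (rows) in each of the 3 LPS-treated mice (circles, upper) and 3 vehicle-treated mice (squares, lower), with the median and the 95th percentile of 1190 receptor genes (mean of the groups) as vertical lines. In this plot 28 of the 49 members stay left of the 95th percentile in both groups, among them Timp1, Mmp3, Mmp8, Mmp9 and Mmp12.

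Among the TIMPs, Timp1 was the member with a higher mean after LPS. TIMP1 is the secreted inhibitor that many inflamed tissues induce, and its gene lies on the X chromosome. Its values were 6.18, 5.90 and 6.18 in LPS-treated mice, against 5.65, 5.81 and 5.84 in controls. The groups did not overlap, and the lowest LPS value lay 0.07 above the highest control. The difference was 0.32 (SE 0.11, 95% confidence interval 0.07 to 0.58), with an adjusted p of 0.272 by limma, and both group means were below the 95th percentile of the receptor genes. The other 3 TIMPs lay far above background and differed little. TIMP2, which also takes part in the activation of pro-MMP2 by MMP14, had Timp2 values of 11.25, 11.21 and 11.29 in LPS-treated mice and 11.26, 11.24 and 11.46 in controls, a difference of -0.07 (95% confidence interval -0.27 to 0.14). Timp3, whose product is held in the matrix, had values of 11.22, 11.08 and 11.21 in LPS-treated mice and 11.22, 11.25 and 11.30 in controls. The highest LPS value of Timp3 and its lowest control both rounded to 11.22, and the difference was -0.09 (adjusted p = 0.622 by limma). Timp4, a TIMP found mainly in brain and heart, had values of 10.92, 10.78 and 11.03 in LPS-treated mice and 11.09, 11.28 and 10.98 in controls, with a difference of -0.21 (95% confidence interval -0.47 to 0.05) and overlapping groups.

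The gelatinases MMP2 and MMP9, which cut denatured collagen and type IV collagen of the basement membrane, did not differ detectably. Mmp9 had values of 5.67, 5.72 and 5.88 in LPS-treated mice, against 5.72, 5.80 and 5.78 in controls, all of them near the median of the receptor genes. Its difference was -0.01, with a 95% confidence interval of -0.21 to 0.19. Mmp2 was above background, with 6.62, 6.57 and 6.69 in LPS-treated mice and 6.70, 6.66 and 6.72 in controls. The Mmp2 groups overlapped, and the difference was -0.07 (95% confidence interval -0.24 to 0.11).

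The membrane-type MMPs included 4 of the 5 MMPs above background. MMP14 is the membrane-bound activator of pro-MMP2 and a collagenase in its own right. Mmp14 values were 7.44, 7.32 and 7.80 in LPS-treated mice, against 7.04, 7.25 and 7.02 in controls. LPS replicate 3 was the highest of the 6, and LPS replicate 2 lay 0.07 above the highest control. The difference was 0.42 (SE 0.14, 95% confidence interval 0.08 to 0.75), a fold change of 1.33, and it did not pass the test (adjusted p = 0.282 by limma, and 0.148 to 0.523 with 1 array left out). Mmp16, which encodes another membrane-type activator of pro-MMP2, had values of 9.48, 9.47 and 9.58 in LPS-treated mice and 9.45, 9.34 and 9.35 in controls. The Mmp16 groups did not overlap, with a difference of 0.13 (adjusted p = 0.475 by limma). Mmp24, a membrane-type MMP studied in neurons, had values of 8.55, 8.50 and 8.56 in LPS-treated mice, against 8.68, 8.66 and 8.72 in controls. All 3 LPS-treated mice were below all 3 controls, and the spread within each group was small. The Mmp24 difference was -0.15 (95% confidence interval -0.31 to 0.02, adjusted p = 0.387 by limma). Mmp17, which encodes an MMP held on the cell surface by a lipid anchor, ranged from 8.97 to 9.44 in LPS-treated mice and from 9.12 to 9.38 in controls, with a difference of -0.04. Mmp25, known from leukocytes, lay below the 95th percentile of the receptor genes and had a difference of 0.19.

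The collagenases (Mmp1a, Mmp1b, Mmp8 and Mmp13) and the stromelysin and matrilysin genes (Mmp3, Mmp7, Mmp10 and Mmp11) were all below that percentile in both groups. MMP3, or stromelysin 1, cuts proteoglycans and laminin and activates other pro-MMPs. Mmp3 values were 5.11, 5.16 and 4.98 in LPS-treated mice, against 5.43, 5.38 and 5.40 in controls. The LPS-treated mice were all lower, and both groups lay below the median of the receptor genes. The Mmp3 difference was -0.32 (SE 0.08, 95% confidence interval -0.51 to -0.14), with an adjusted p of 0.173 by limma. Mmp8, the neutrophil collagenase, had values of 5.34, 5.31 and 5.20 in LPS-treated mice and 5.20, 5.18 and 5.13 in controls, also below the receptor median. Its difference was 0.11 (adjusted p = 0.520 by limma). Mmp12, the macrophage elastase, had values of 5.78, 5.96 and 5.94 in LPS-treated mice and 6.01, 6.05 and 6.23 in controls. The LPS-treated mice were again the lower group, with a difference of -0.21 (95% confidence interval -0.43 to 0.02). The marker list of neutrophils, which carry MMP8 and MMP9 in their granules, was at the same level, with a mean of 5.66 to 5.74 in LPS-treated mice and 5.56 to 5.81 in controls. None of its 8 genes passed the test or lay above the 95th percentile of the receptor genes in either group.

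Several of these genes are neighbours. Mmp13, Mmp12, Mmp1b, Mmp3, Mmp1a, Mmp10, Mmp8, Mmp27, Mmp20 and Mmp7 form a run of 10 genes in the RefSeq annotation with no other protein-coding gene between them, on chromosome 9. None of the 10 was above the 95th percentile of the receptor genes, and 3 lay above their median in a group. Their differences ran from -0.32 to 0.14, 6 of them negative, and Mmp3 was the 1 with an unadjusted p under 0.05. The 250 bases before the annotated start were searched on both strands for 6 motifs in the RefSeq promoter sequences (GRCm38.p6), which held 34 of the 49 members. An AP-1 match, TGANTCA, was found in 7 of the 10 run genes and in 0 of the 24 other members found there, against 6.75% of all 32851 promoter windows. A TATA box match, TATAAA, was found in 7 of the 10 run genes and 3 of the other 24, against 12.37% of all windows, and a GC box match, GGGCGG, in 0 of the 10 and 18 of the 24, against 32.74%. These genes arose from each other by duplication, so their matches are not independent, and a match is a description of letters and not a binding site. The AP-1 matches are shown because they set the run apart from the rest of the family. Each is given with 10 bases on either side, 5′ to 3′ on the strand of the gene, with the match in capitals.
Mmp13: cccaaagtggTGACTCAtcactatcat
Mmp1b: ttacaaagccTGAGTCAtatagcctct
Mmp3: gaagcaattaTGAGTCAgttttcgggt
Mmp1a: ttgtcaaccaTGAGTCAcatagcctct
Mmp10: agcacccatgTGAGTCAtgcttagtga
Mmp20: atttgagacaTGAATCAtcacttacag
Mmp7: agtgtgcaaaTGAGTCAcctatttcca
On the strand of the gene, 5 of the 7 had the letters TGAGTCA. Mmp13 had TGACTCA, which is TGAGTCA read on the other strand, and Mmp20 had TGAATCA. The matches began between 35 bases (Mmp13) and 95 bases (Mmp20) before the start. No member had a STAT match, TTCNNNGAA, in its window, against 7.02% of all windows, and 1, Mmp13, had a match to the interferon-stimulated response element, against 2.98%. An NF-kappa-B match was found in 4 of the 34, or 11.8%, against 7.25%.

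Adamts1 had the largest difference of the 49 members. ADAMTS1 cleaves aggrecan and versican and is known as an inflammation-induced and endothelial gene in mouse. Its values were 7.10, 7.13 and 7.28 in LPS-treated mice, against 6.71, 6.21 and 6.16 in controls. The lowest LPS value lay 0.39 above the highest control, PBS replicate 1, which itself was 0.50 above the next control. The mean was 7.17 ± 0.095 in LPS-treated mice and 6.36 ± 0.30 in controls (SD, n = 3 each), so that it crossed the receptor background in LPS-treated mice alone. The difference was 0.81 (SE 0.16, 95% confidence interval 0.44 to 1.18), with an unadjusted p of 0.00134 and an adjusted p of 0.108 by limma. Without PBS replicate 1 the adjusted p was 0.0404, without LPS replicate 3 it was 0.0429, and the highest value with 1 array left out was 0.366. The call therefore turned on single arrays, and the difference stayed between 0.71 and 0.98. The 250 bases before its start, at chr16:85803114-85803363 on the minus strand of GRCm38.p6, are shown as those of the member with the largest difference, and those of Mmp14, at chr14:54431348-54431597 on the plus strand, are set beside them. Capitals mark matches to the 6 motifs.
Adamts1: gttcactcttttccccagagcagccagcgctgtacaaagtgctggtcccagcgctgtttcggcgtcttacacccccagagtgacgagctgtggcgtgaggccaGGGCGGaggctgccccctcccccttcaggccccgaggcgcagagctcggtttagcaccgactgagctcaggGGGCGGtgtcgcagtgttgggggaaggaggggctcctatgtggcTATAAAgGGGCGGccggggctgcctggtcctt
Mmp14: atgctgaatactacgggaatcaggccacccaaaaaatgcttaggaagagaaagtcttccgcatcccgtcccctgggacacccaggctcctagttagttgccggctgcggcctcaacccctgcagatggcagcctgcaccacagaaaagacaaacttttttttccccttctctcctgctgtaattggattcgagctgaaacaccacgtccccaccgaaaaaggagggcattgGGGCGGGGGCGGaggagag
Adamts1 held a TATA box match from 32 to 27 bases before its start and 3 GC boxes, and Mmp14 held 2 adjoining GC boxes within 19 bases of its start and no TATA box match.

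Endothelial markers are given beside Adamts1 and Mmp14 because they were higher in the same mice. All 6 endothelial markers had a higher mean in LPS-treated mice with groups that did not overlap, and 5 of the 6 (Pecam1, Cdh5, Cldn5, Tek and Emcn) passed the test. The mean level of the list was 8.83 to 8.96 in LPS-treated mice, against 7.87 to 8.00 in controls, and the median difference was 1.01. Of 6 markers of pericytes and smooth muscle, 0 passed the test and 4 had an unadjusted p under 0.05 as higher, against 7.69% of all clusters. The other 2, Kcnj8 and Tagln, differed by -0.43 and 0.02 with overlapping groups. The mean level of this list was 7.81 to 8.05 in LPS-treated mice and 7.67 to 7.83 in controls. Markers of other cell types were higher in these mice as well. At an unadjusted p under 0.05, 4 of 7 macrophage and microglia markers and 1 of 6 astrocyte markers were higher. In each of these lists 0 passed the test and 1 marker had a negative difference. The part of these cell types in the values of Adamts1 and Mmp14 was not tested.

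Of the other 6 proteoglycan-cleaving ADAMTS genes, none had an unadjusted p under 0.05 in its brightest cluster. Adamts5, its direct neighbour on the chromosome and the main aggrecanase of mouse cartilage, had values of 6.30, 6.08 and 6.35 in LPS-treated mice and 6.38, 5.91 and 6.01 in controls. The groups overlapped below the receptor background, with a difference of 0.14 (95% confidence interval -0.19 to 0.48). Adamts4, a brevican-cleaving aggrecanase that oligodendrocytes express in mouse, had values of 8.20, 8.33 and 8.60 in LPS-treated mice, against 8.76, 8.58 and 8.59 in controls. LPS replicates 1 and 2 lay below all controls and LPS replicate 3 lay among them, and the difference was -0.27 (95% confidence interval -0.55 to 0.02, adjusted p = 0.378 by limma), or -0.38 without LPS replicate 3 (adjusted p = 0.0562). The 5 measured oligodendrocyte markers also had lower means, at 11.23 to 11.30 in LPS-treated mice and 11.35 to 11.50 in controls, with 0 past the test, and their part in the value of Adamts4 was not tested. Adamts20, with a difference of 0.20, and Adamts8, with -0.16, had groups that did not overlap, and neither had an unadjusted p under 0.05.

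Adamts18 encodes another secreted protease of the family and also lay above the receptor background in LPS-treated mice alone. Its values were 6.88, 6.84 and 6.72 in LPS-treated mice, against 6.51, 6.53 and 6.28 in controls, with no overlap. The difference was 0.38 (SE 0.10, 95% confidence interval 0.14 to 0.61), and the adjusted p was 0.197 by limma and 0.0496 without LPS replicate 3. Adamts3, a procollagen N-proteinase that in mouse also takes part in the activation of VEGF-C, was the ADAMTS gene with a lower mean and an unadjusted p under 0.05. Its values were 9.23, 9.21 and 9.27 in LPS-treated mice and 9.38, 9.39 and 9.48 in controls. The groups did not overlap, and the difference was -0.18 (95% confidence interval -0.35 to -0.01, adjusted p = 0.330 by limma). Adamts17 had a difference of 0.12 (95% confidence interval -0.08 to 0.32) with overlapping groups.

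Adamts10, a fibrillin-binding member that was picked out after its values were seen, split the LPS-treated mice. Its values were 8.29, 8.42 and 7.52 in LPS replicates 1, 2 and 3, against 7.67, 7.53 and 7.67 in controls. LPS replicates 1 and 2 were high and LPS replicate 3 was the lowest of the 6, and the mean of replicates 1 and 2 exceeded replicate 3 by 0.84. Over all 6 arrays the difference was 0.45 (95% confidence interval -0.09 to 0.99, adjusted p = 0.412 by limma). Without LPS replicate 3 it was 0.73, with an adjusted p of 0.00942, and LPS replicate 3 alone lay 0.11 below the control mean. Its split is that of the array medians and of the first principal component, and whether the arrays or the mice set it was not tested.

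**Figure D3:**
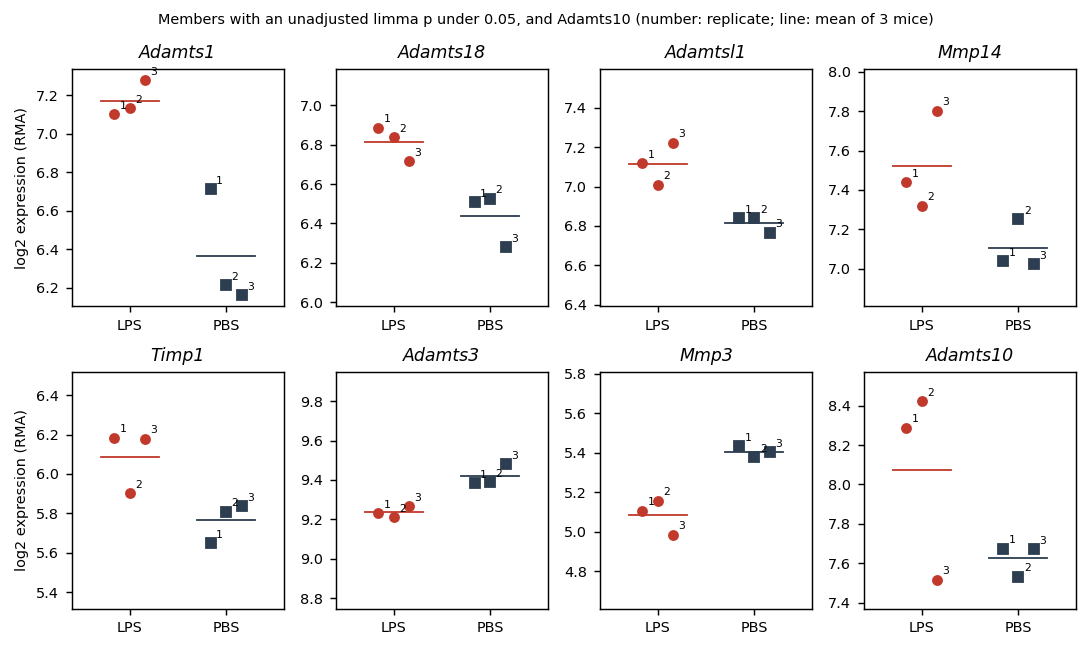
Log2 expression (y axis, a separate range in each panel and not starting at 0) of the 7 members with an unadjusted limma p under 0.05 and of Adamts10, in the 3 LPS-treated mice (left, circles) and 3 vehicle-treated mice (right, squares), with replicate numbers and the group mean as a line. The groups are apart in the first 7 panels, while in the Adamts10 panel LPS replicate 3 lies at 7.52, beside the controls.

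The 5 ADAMTS-like genes had positive differences, of which 4 stayed positive after quantile normalization, 3 after centring each array on its median, 3 without LPS replicate 2 and 2 without LPS replicates 1 and 2. Of all 35556 clusters, 17691 had a positive difference. Adamtsl2 and Adamtsl3 lay below the 95th percentile of the receptor genes in both groups, and Adamtsl3 differed by 0.01. Adamtsl1, whose product is a matrix protein also called punctin, had values of 7.12, 7.01 and 7.22 in LPS-treated mice, against 6.84, 6.84 and 6.77 in controls. The groups did not overlap, and the difference was 0.30 (SE 0.08, 95% confidence interval 0.10 to 0.50), a fold change of 1.23 with an adjusted p of 0.219 by limma. Adamtsl4, a fibrillin-binding protein, had values of 8.08, 8.28 and 7.77 in LPS-treated mice and 7.85, 7.95 and 7.70 in controls. LPS replicates 1 and 2 lay above all controls and LPS replicate 3 among them, with a difference of 0.21 (95% confidence interval -0.13 to 0.54). Without LPS replicate 3 it was 0.34 (adjusted p = 0.106 by limma), and without LPS replicate 2 it was 0.090. Adamtsl5 differed by 0.04 (95% confidence interval -0.16 to 0.23).

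For 4 members the array has more than 1 cluster that names the gene alone, and the clusters did not always agree. Adamts9, which cleaves versican and aggrecan, has 6 clusters. The brightest had values of 7.69, 7.68 and 7.38 in LPS-treated mice and 7.45, 7.52 and 7.55 in controls, a difference of 0.08 (95% confidence interval -0.17 to 0.33). All 6 clusters of Adamts9 had a positive difference, from 0.05 to 0.61, and in 3 of them the groups did not overlap and the unadjusted p was under 0.05. The dimmest of the 6 had values of 6.64, 6.63 and 6.63 in LPS-treated mice, against 6.33, 6.15 and 6.21 in controls, and the smallest adjusted p of the gene was 0.110 by limma. The rule of the brightest cluster therefore gave the second smallest difference that the array holds for Adamts9, and the other 5 were not used in the counts above. Averaged over its clusters, Adamts9 differed by 0.30 (adjusted p = 0.242 by limma). Adamts3 has 16 clusters, 7 with a positive and 9 with a negative difference, from -0.18 to 0.23, and the brightest was the 1 with an unadjusted p under 0.05. With the clusters of each gene averaged, 3 ADAMTS genes had an unadjusted p under 0.05 as higher and 0 as lower. Adamts3 was therefore not among the lower members in that setting. The 5 clusters of Adamts17 had differences of 0.04 to 0.15, none with an unadjusted p under 0.05. The pair of clusters of Adamtsl1 differed by 0.10 and 0.30, both with groups that did not overlap.

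**Figure D4:**
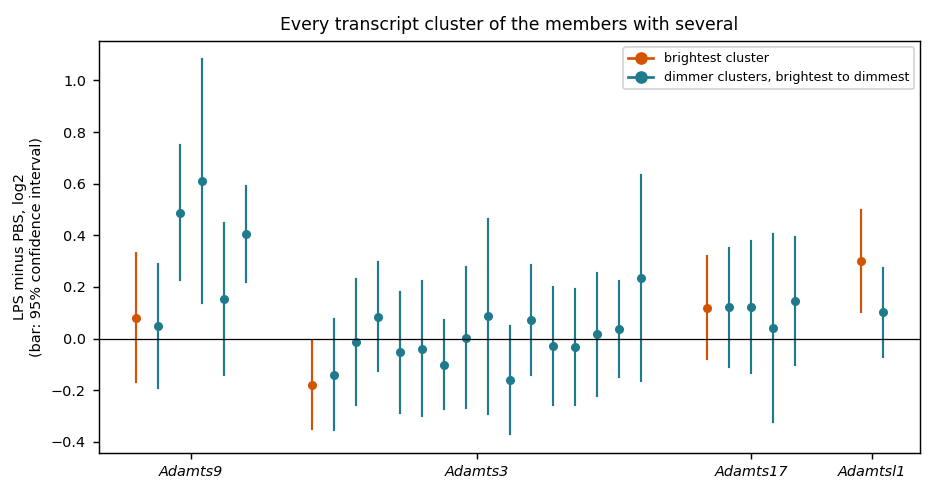
Difference in mean log2 expression, LPS-treated minus vehicle-treated mice (y axis), with its unadjusted 95% confidence interval, for every cluster of Adamts9, Adamts3, Adamts17 and Adamtsl1 (x axis, brightest cluster first within each gene). The clusters of Adamts9 range from 0.05 to 0.61, with the brightest at 0.08, whereas the 16 clusters of Adamts3 lie on both sides of 0.

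The genes around the family were taken from 5 lists of regulators and substrates. Of the 69 genes of these lists that were measured, 4 passed the test, all as higher in LPS-treated mice. Over all clusters 0.652% passed as higher. The lists were chosen with earlier results of these data known, so these counts are not independent of them. Among inhibitors, clearance receptors and inducers, 2 of 12 rose. Lcn2, the siderophore-binding lipocalin 2 that also binds MMP9 in neutrophils, rose by 4.87, with values of 11.18, 10.89 and 10.80 in LPS-treated mice, against 6.33, 6.21 and 5.71 in controls (adjusted p = 0.000878 by limma). The control values lay below the 95th percentile of the receptor genes, so the size of that difference is set against background. Serpina3n, a serine protease inhibitor of reactive astrocytes, rose by 1.82, with 11.19, 11.40 and 11.22 in LPS-treated mice, against 9.30, 9.74 and 9.33 in controls (adjusted p = 0.00367 by limma). These were the members of the list at the extremes, since its median difference was 0.08. Papln, an ADAMTS-like extracellular protein, had a difference of 0.39 (adjusted p = 0.138 by limma), and Bsg, which encodes the MMP inducer basigin, one of 0.22 (adjusted p = 0.322 by limma). Papln lay below the 95th percentile of the receptor genes in both groups.

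In the list of plasminogen activation and MMP activators, 0 of 12 measured genes passed the test and the median difference was 0.05. Plat, the tissue-type plasminogen activator, had values of 8.47, 8.26 and 8.55 in LPS-treated mice, against 8.76, 8.59 and 8.77 in controls, a difference of -0.28 (adjusted p = 0.301 by limma). Furin, the convertase that activates MMP14 and many ADAMTS proteases, had a difference of -0.18 (adjusted p = 0.353 by limma). In the ADAM family, the membrane-anchored relatives of ADAMTS, 0 of 12 passed and the median difference was 0.06. At an unadjusted limma p under 0.05 there were 3 of the 12 as higher, against 7.69% of all clusters, and 0 as lower. Adam17, the sheddase of TNF, had a difference of 0.32 (adjusted p = 0.268 by limma), and Adam15 one of 0.21 (adjusted p = 0.284 by limma).

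The substrates were taken as a pair of lists. The list of lecticans and perineuronal net genes holds the brain proteoglycans that ADAMTS proteases cut and their link proteins. It also holds Tnr, Tnc, Ptprz1 and the hyaluronan synthases Has1, Has2 and Has3. Of its 14 genes, 0 passed the test, 11 had a negative difference and the median difference was -0.10. Over all 35556 clusters, 17865 had a negative difference. Hapln3, Has1, Has2 and Has3 were among the 11 and lay below the 95th percentile of the receptor genes in both groups. At an unadjusted p under 0.05 there were 2 of 14, or 14.3%, the share of all clusters. Bcan, which encodes brevican, had values of 10.38, 10.45 and 10.45 in LPS-treated mice, against 10.63, 10.72 and 10.71 in controls, a difference of -0.26 (adjusted p = 0.216 by limma). Hapln2, a link protein of the nodes of Ranvier, had a difference of -0.51 (adjusted p = 0.220 by limma). In the list of basement membrane and interstitial matrix genes, which MMPs cut, 2 of 19 measured genes rose and the median difference was 0.20, against -0.02 over all genes named singly. Fn1, which encodes fibronectin, rose by 0.82, with 10.28, 10.43 and 10.48 in LPS-treated mice, against 9.56, 9.50 and 9.66 in controls (adjusted p = 0.0131 by limma, and up to 0.0922 with 1 array left out). Hspg2, which encodes perlecan, rose by 0.64, with 7.35, 7.35 and 7.35 in LPS-treated mice, against 6.78, 6.59 and 6.75 in controls (adjusted p = 0.0230 by limma, and up to 0.119 with 1 array left out). Nid1 and Lama4, which encode nidogen 1 and a laminin chain of vessel walls, had differences of 0.51 and 0.76 with adjusted p-values of 0.0826 and 0.0943 by limma. Without LPS replicate 3 both passed (0.0294 for Nid1 and 0.0172 for Lama4), and with another array left out they reached 0.298 for Nid1 and 0.317 for Lama4. The control mean of Lama4, at 6.21, lay below the 95th percentile of the receptor genes. A further 4 genes of this list had an unadjusted p under 0.05 as higher, which makes 8 of 19, against 7.69% of all clusters. The endothelial markers given above were higher in the same mice. Of 7 macrophage and microglia markers, 0 passed the test and 4 had an unadjusted p under 0.05 as higher, against 7.69% of all clusters. Aif1, Tmem119 and Ccr2 had overlapping groups, with differences of 0.09, 0.11 and -0.29. The mean level of these markers was 7.68 to 7.88 in LPS-treated mice and 7.53 to 7.57 in controls. Of 6 markers of meningeal and perivascular fibroblasts, Dcn alone passed, with a difference of 0.64 (adjusted p = 0.0466 by limma). The list's mean level was 8.88 to 9.09 in LPS-treated mice and 8.80 to 8.86 in controls. Its median difference was 0.06, and 2 of the 6 were negative, among them Pdgfra at -0.21 with groups that did not overlap. The part of these cell types in the matrix list and in the family was not tested.

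**Figure D5:**
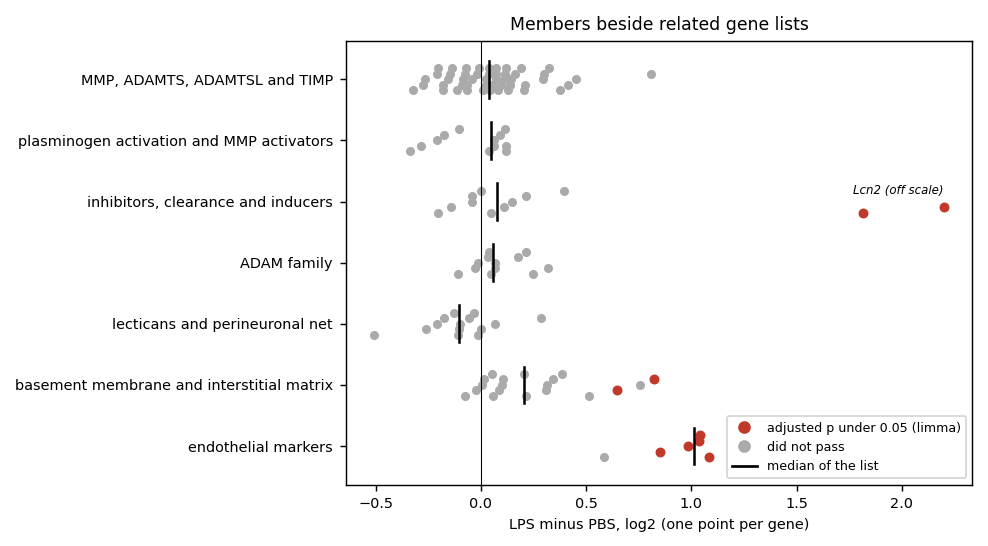
Difference in mean log2 expression, LPS-treated minus vehicle-treated mice (x axis), of each gene of the family, of the 5 related lists and of the endothelial markers (rows, 1 point per gene, median as a bar), with genes past the adjusted test in red; Lcn2, at 4.87, is drawn at the edge. No point of the family in the top row passed the test, whereas Lcn2, Serpina3n, Fn1, Hspg2 and 5 of the 6 endothelial markers did.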

How the data were processed

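Brain RNA from 3 LPS-treated and 3 vehicle-treated mice was measured on 6 arrays. The log2 values were deposited by the authors after RMA normalization, which corrects background, normalizes between arrays and summarises probes; the methods do not state whether Partek or GeneSpring gave them. They were used as deposited, without a filter, and their precision is limited by how few arrays there were.

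Clusters were named from GEO's platform annotation: 21789 of 35556 clusters named 1 gene, 1621 several and 12146 none. Each gene was read from its cluster with the highest mean. Groups were compared over all clusters by limma 3.58.1 (R 4.3.3; lmFit, then eBayes; two-sided tests) at a Benjamini-Hochberg threshold of 0.05, and the code was tested on simulated data. Background was the 95th percentile of the receptor genes.

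Named genes were all TIMPs, members with an adjusted or unadjusted p under 0.05, the 3 with the highest mean in each other family, 10 chosen for a role in inflammation, and in each related list those that passed and the pair with the next smallest p. Adamts8, Adamts10, Adamts20 and Mmp25, the promoters printed and the share of AP-1 matches in the run of genes were picked out after values or matches were seen. Members and lists were chosen with earlier results of these data known. Some listed genes are not reported here. Alternatives planned were the methods' t-test, a trend or robust eBayes, weighted arrays, quantile normalization, median centring, dropping the dimmest 40% of clusters, only clusters naming 1 gene, averaged clusters, an offset of 32, thresholds of 0.1 and 0.01, a replicate block, each array left out, LPS replicates 1 and 2 left out, and other backgrounds; the unadjusted threshold was added after the data were seen. Promoter sequences came from RefSeq (GRCm38.p6).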

Additional observations from a re-analysis of the deposited data

How the results depend on the processing

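Of the members, 0 were higher and 0 lower at the adjusted threshold under all alternatives except array weights (7 higher, 5 lower), the unadjusted threshold (5 higher, 2 lower) and 1 array left out (0 to 3 higher: 3 without LPS replicate 3, namely Adamts1, Adamts10 and Adamts18, and 1 without PBS replicate 1, namely Adamts1). Beside those 3 of 49 members, 2640 of all 35556 clusters passed as higher without LPS replicate 3. Of all clusters, 232 were higher: 4 by the methods' t-test, 4751 with array weights, 141 with median centring, 356 and 97 at adjusted thresholds of 0.1 and 0.01, 71 without LPS replicates 1 and 2, 2733 unadjusted, and 74 to 2640 with 1 array left out, the highest without LPS replicate 3. Lower were 22: 1 by the methods' t-test, 3572 with array weights, 13 with quantile normalization, 10 with median centring, 11 among clusters naming 1 gene, 64 and 0 at thresholds of 0.1 and 0.01, 12 without LPS replicates 1 and 2, 2341 unadjusted, and 0 to 1152 with 1 array left out. Of the related lists, 4 genes were higher: 0 by the methods' t-test, 2 with median centring, 1 without LPS replicates 1 and 2, and 2 to 6 with 1 array left out. Above the receptor median were 35 members in LPS-treated mice and 36 in controls, against 21 in LPS-treated mice and 18 in controls above its 95th percentile. The causes were not tested.

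The deviations of same-numbered mice from their group means had correlations of 0.09, -0.05 and 0.10. With 3 mice in each group these cannot settle whether the numbers pair the mice. With the replicate block, 0 members, 76 clusters and 2 related genes were higher and 4 clusters lower.

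Median centring moved the median of all clusters by -0.09. The median member difference was 0.04, 0.01 with quantile normalization and -0.05 with median centring, where 18 members were positive and 31 negative, and higher clusters made up 53.9%, 43.0% and 29.3% of those with an unadjusted p under 0.05. Among the 23 members named by rule, these differences turned sign: Timp2 (-0.11 to 0.00093 with 1 array left out), Mmp17 (0.18 with array weights, -0.16 to 0.072 with 1 left out), Mmp9 (0.11 without LPS replicates 1 and 2, -0.067 to 0.035 with 1 left out), Adamtsl4 (-0.062 without LPS replicates 1 and 2), Adamtsl5 (-0.055 with quantile normalization, -0.054 with median centring, -0.075 without LPS replicates 1 and 2, -0.0091 to 0.094 with 1 left out) and Adamts9 (-0.010 with median centring, -0.12 without LPS replicates 1 and 2). Adamts10, outside that rule, was -0.11 without LPS replicates 1 and 2, against 0.45. Without LPS replicates 1 and 2 the lone LPS array was assumed to vary like the controls.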
